A study of Homo sapiens with 29 samples.

Results

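The 44 genes described here encode the autophagy machinery (23 genes), the MiT/TFE transcription factors (3 genes) and proteins of the lysosome (18 genes: 11 hydrolases, counting the activator precursor PSAP with them, 5 proteins of the lysosomal membrane or of sterol export, and 2 subunits of the proton pump). They were taken from a list of gene names drawn up with earlier results of these data known, and all 44 were found among the 23710 gene symbols of the expression table, 42 under the listed symbol and 2 (ATG101 and CTSL) under an older symbol, matched through RefSeq synonyms. The RNA data comprise 27 libraries, 3 in each of 9 groups. H460 and H2122, lines of human non-small cell lung cancer, carried a short hairpin RNA (sh): in H460 it was directed against NRF2, NR0B1 or SNW1, or against GFP as control, for 72 h, and in H2122 against NRF2 or GFP for 24 h. A separate set of H460 cultures received DMSO, 30 µM BPK29 or 30 µM BPK9 for 12 h. The labels name 1 target per group but neither the hairpin sequence nor how many hairpins were used, and they do not say whether the 3 libraries of a group came from separate cultures, so the p-values measure only how far these libraries scatter, which may be a technical spread. The 2 lines differ in knockdown time as well, and line and time cannot be told apart.

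Autophagy delivers cytoplasm and organelles to the lysosome. The ULK1 kinase complex starts the process, the BECN1 and ATG14 lipid kinase complex marks the forming membrane with a phosphoinositide read by the WIPI proteins, and a conjugation system built from ATG proteins attaches the ATG8 proteins (the LC3 and GABARAP families) to that membrane, where receptors such as NBR1 and OPTN bring in cargo. Hydrolases that work at the acidic pH set by the vacuolar ATPase then degrade the content. TFEB, TFE3 and MITF are transcription factors that bind E-box elements in the promoters of many lysosomal and autophagy genes, and their activity is set largely by phosphorylation and nuclear entry. NRF2 (gene NFE2L2) drives antioxidant response genes and is constitutively active in H460 and H2122, which carry KEAP1 mutations. NR0B1 is an orphan nuclear receptor that acts as a corepressor in a protein complex, and SNW1 is a splicing and transcription coregulator. BPK29 is known as a covalent ligand of NR0B1 and BPK9 as its control compound.

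Each knockdown library held 16709805 to 24613353 reads and each compound library 19077406 to 24824335, as recovered from the deposited values. The hairpins' own targets were lower in each labelled group: NFE2L2 changed by -0.67 ± 0.038 in H460 and -1.11 ± 0.03 in H2122, NR0B1 by -1.34 ± 0.041 under its own hairpin and SNW1 by -0.65 ± 0.043, as log2 fold changes of FPKM + 1 with their SE, the form used for all changes here. NR0B1 was also lower under the NRF2 hairpin, by -2.27 in H460 and -3.32 in H2122. Of 5 epithelial markers, KRT8, KRT18 and KRT19 were high in both lines, while EPCAM and CDH1 were near 0 in H460 (EPCAM 0.945, 0.871 and 0.847 FPKM under shGFP) and high in H2122. The lung markers NKX2-1, SFTPB and SFTPC were at or near 0 in both lines. The summed level of 6 immune markers was 29.2 to 33.1 FPKM in H460 shGFP and 28.4 to 31.9 in H460 shNRF2, but 46.2 to 47.5 in H2122 shGFP and 105.5 to 108.5 in H2122 shNRF2, where CD68, itself a lysosomal membrane protein, made up 96.5 ± 1.9 FPKM (SD, n = 3), LYZ 5.16 ± 0.29 and CD79A 4.61 ± 0.14, while PTPRC and CD3E were at or near 0. The 6 fibroblast and endothelial markers summed to 7.17 to 7.90 FPKM in H460 shGFP and 13.9 to 14.9 in H460 shNRF2, where DCN was at 10.3 ± 0.7. Under shNR0B1 the same 6 summed to 15.5 to 16.6 FPKM, with COL3A1 at 12.2 ± 0.43 against 6.18 ± 0.53 under shGFP and COL1A1 at 2.67 ± 0.25 against 0.489 ± 0.043. The 5 epithelial markers summed to 1972 to 2249 FPKM in H460 shGFP and 1198 to 1223 in H460 shNR0B1, and to 2566 to 2580 in H2122 shGFP and 3884 to 4012 in H2122 shNRF2. The part of these markers in the results was not tested, and in RNA from whole cultures fewer cells of a type and less RNA per cell cannot be told apart.

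In the control libraries the 44 members ranged from 1.33 (MITF) to 2187 FPKM (CTSL) in H460 shGFP and from 1.64 (NEU1) to 369 FPKM (CTSD) in H2122 shGFP, with medians of 21.7 and 23.4 FPKM. FPKM is a level per length of transcript, so genes are set side by side only as far as the lengths behind the deposited values hold. The most abundant in H2122 were CTSD, the sphingolipid activator precursor PSAP, CTSL, GABARAP and CTSB, and the scarcest in H460, leaving out NEU1, were MITF, OPTN, TFEB and ATG2A. CTSL, a cysteine protease, was listed at 2161, 2201 and 2199 FPKM in the 3 H460 shGFP libraries and at 284, 289.7 and 289 FPKM in H2122 shGFP, and CTSZ at 465, 476 and 527 against 101, 97.3 and 99.0 FPKM. OPTN, a receptor for ubiquitin-marked cargo, lay the other way, at 2.06, 1.58 and 2.2 FPKM in H460 and 12.6, 13.1 and 11.0 in H2122. In all, 4 members were over 2-fold higher in H460 (CTSL, CTSZ, TFE3, LAMP2) and 4 were over 2-fold higher in H2122 (OPTN, MITF, ATP6V1H, CTSB), a description of control means that was not tested. The length that the deposited knockdown values imply for NEU1 is about 3.13 times its whole gene span in RefSeq (GRCh38.p14), so the level of NEU1 is understated and the added 1 FPKM damps its fold changes.

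**Figure D1:**
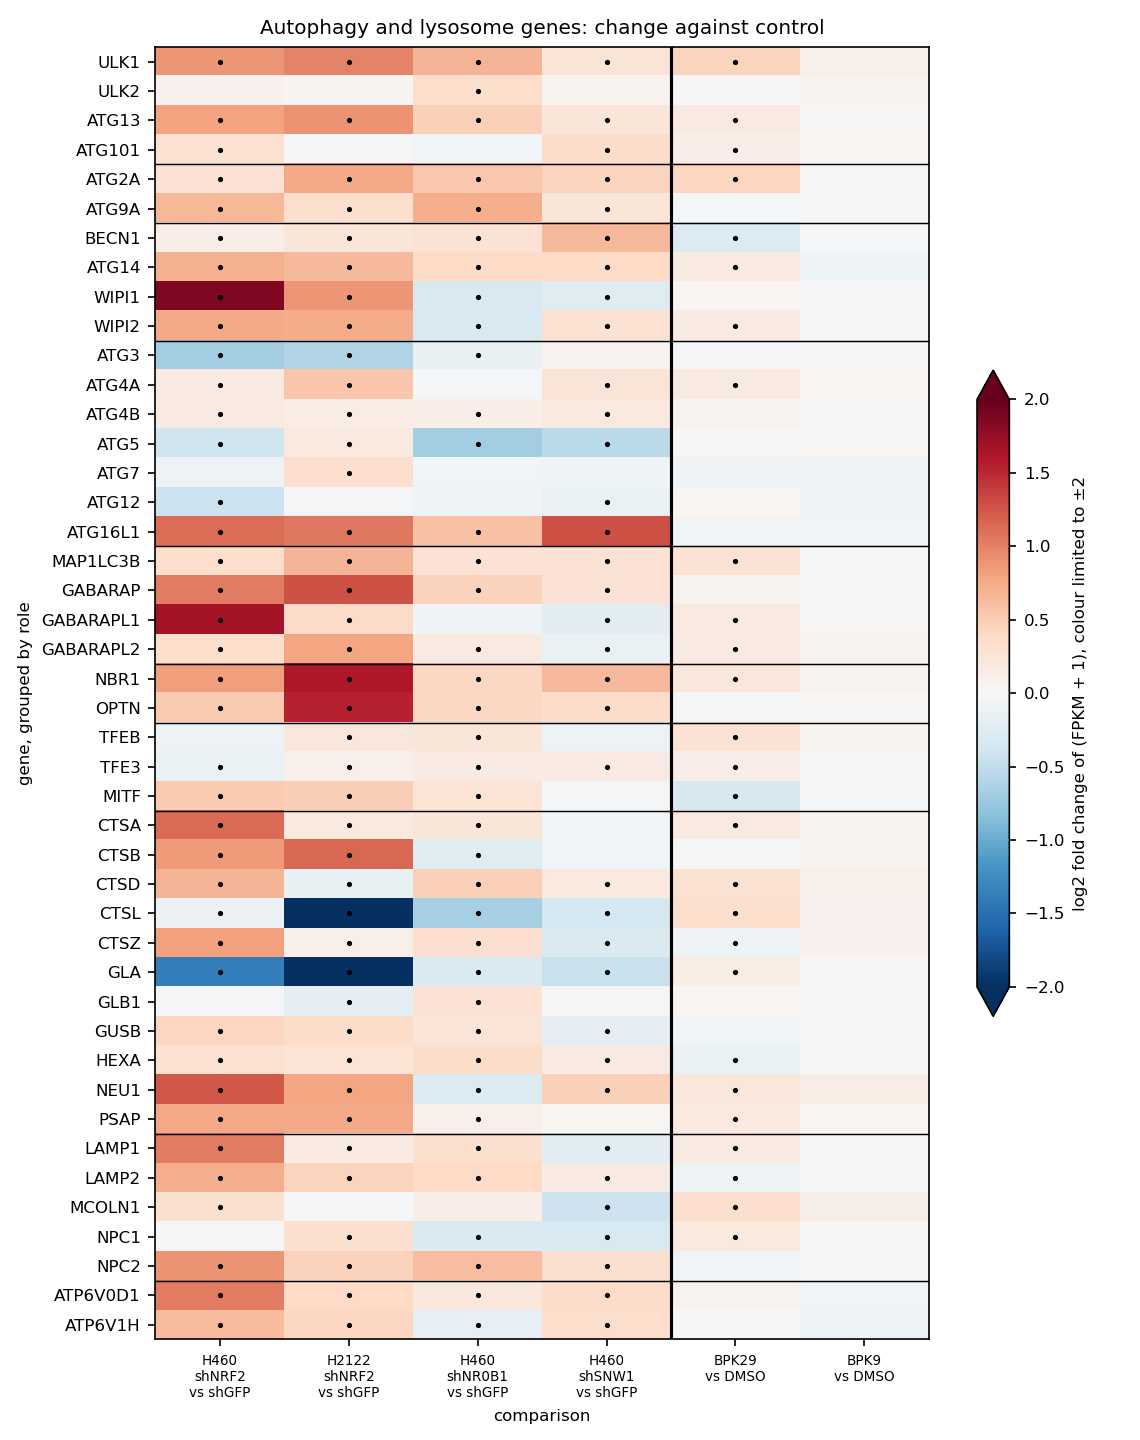
Log2 fold change of FPKM + 1 for the 44 members (rows, in blocks by role) against the control of each experiment (columns), with a dot where limma's adjusted p was under 0.05. The NRF2 columns are mostly red, with GLA and ATG3 blue in both lines and CTSL dark blue in H2122, and the BPK9 column holds no dot.

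The mRNA of the 3 MiT/TFE factors changed by no more than 0.52 on the log2 scale in any knockdown and by no more than 0.33 with a compound. TFEB, a master regulator of lysosomal genes, was at 2.18, 2.12 and 2.6 FPKM in the 3 H460 shGFP libraries, 2.39, 1.91 and 1.95 under shNRF2, 3.09, 2.88 and 2.77 under shNR0B1 and 1.91, 2.05 and 2.25 under shSNW1. Its shNR0B1 libraries were all above those of shGFP (0.25 ± 0.076, limma adjusted p = 0.00993), while the shNRF2 and shSNW1 libraries overlapped the control and did not pass the test. In H2122 it went from 2.17, 2.38 and 1.91 to 2.67, 2.91 and 2.52 FPKM, a rise of 0.23 ± 0.07 (adjusted p = 0.0111). TFE3 was the most abundant of the 3 factors, at 33.6, 34.1 and 36.5 FPKM in H460 shGFP, 31.9, 31.1 and 31.2 under shNRF2, 39.3, 37.8 and 39.2 under shNR0B1 and 40.1, 39.0 and 38.2 under shSNW1. It fell slightly under shNRF2 (-0.14 ± 0.036) and rose slightly under the other 2 hairpins (0.16 and 0.17). In H2122 TFE3 was at 15.0, 15.1 and 14.5 FPKM under shGFP and 16.4, 16.0 and 15.9 under shNRF2, a small rise of 0.11 ± 0.032. MITF, best known from melanocytes, was scarce, at 1.28, 1.35 and 1.37 FPKM in H460 shGFP and 3.67, 3.74 and 3.78 in H2122 shGFP. It was higher in every shNRF2 library, at 2.21, 2.35 and 2.48 FPKM in H460 (0.52 ± 0.056) and 5.63, 5.92 and 5.5 in H2122 (0.50 ± 0.045). MITF also rose under shNR0B1, to 1.92, 1.68 and 1.83 FPKM, and was at 1.32, 1.22 and 1.3 under shSNW1, where it did not pass the test. At levels under 6 FPKM these fold changes of TFEB and MITF are damped by the added 1 FPKM.

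NRF2 knockdown in H460 raised 33 of the 44 members and lowered 6 (limma adjusted p under 0.05), where 40.9% of all 11938 genes tested rose and 39% fell. With a change of at least 1.5-fold added, 21 members rose and 2 fell, against 16.5% and 14.9% of all genes. The median member changed by 0.52 on the log2 scale and the median of all genes by 0.01. By class, 18 of 23 autophagy machinery members rose and 3 fell (median 0.36), and 14 of 18 lysosome members rose and 2 fell (median 0.70).

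The largest rises in the machinery were those of WIPI1, GABARAPL1 and ATG16L1. WIPI1, which binds the phosphoinositide on the forming autophagosome, went from 9.04, 9.46 and 7.87 FPKM under shGFP to 35.8, 35.0 and 33.5 under shNRF2, with no overlap between the groups (1.87 ± 0.079, adjusted p = 5.70e-11). GABARAPL1, an ATG8 protein, went from 30.8, 32.4 and 34.1 to 104, 109 and 101 FPKM (1.66 ± 0.05, adjusted p = 2.15e-12). For both genes every shNRF2 library lay far above every control library. ATG16L1, which positions the conjugation of ATG8 proteins on the membrane, went from 8.39, 8.94 and 9.06 to 19.4, 20.2 and 21.1 FPKM (1.12 ± 0.056). The other ATG8 members rose too, GABARAP by 1.04, MAP1LC3B (LC3B) by 0.36 and GABARAPL2 by 0.36, as did the initiation members ULK1 (0.88), ATG13 (0.81) and ATG101 (0.30), the other WIPI protein WIPI2 (0.76), ATG14 (0.71) and both cargo receptors, NBR1 (0.84) and OPTN (0.53). Among the 4 members not named otherwise in this comparison, 3 rose, by 0.14 to 0.66. ULK2 (0.09) did not pass the test. Near-identical copies took almost no reads: GABARAPL3 was at most 0.0263 FPKM and MAP1LC3B2 at most 0.661 in the 18 knockdown libraries.

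The 3 machinery members that fell all belong to the conjugation system. ATG3, the enzyme that hands ATG8 proteins to the membrane lipid, went from 42.5, 42.2 and 38.2 to 26.0, 24.2 and 24.7 FPKM (-0.69 ± 0.047, adjusted p = 7.43e-09). ATG12, a ubiquitin-like protein, went from 11.6, 11.5 and 11.0 to 7.89, 8.04 and 8.61 (-0.43 ± 0.041). Its conjugation partner ATG5 went from 16.3, 15.2 and 13.8 to 10.7, 11.7 and 11.3 (-0.39 ± 0.059). All 3 pairs of groups stood apart, so within the 7 conjugation members ATG16L1, ATG4A and ATG4B rose, these 3 fell, and ATG7 (-0.10) did not pass the test.

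Among lysosome members the largest rises were those of NEU1, CTSA and LAMP1. NEU1, a sialidase, went from 1.7, 1.66 and 1.97 to 5.73, 5.45 and 5.61 FPKM (1.25 ± 0.056). CTSA, the protective protein that forms a complex with NEU1 and GLB1, went from 73.5, 75.4 and 81.6 to 177, 166 and 165 FPKM (1.13 ± 0.039, adjusted p = 7.96e-12). LAMP1, a major glycoprotein of the lysosomal membrane, went from 99.2, 99.8 and 102 to 207, 209 and 207 (1.04 ± 0.028). In all 3, the lowest shNRF2 library lay well above the highest control, while GLB1, the beta-galactosidase of the same complex, was at 35.0, 32.6 and 35.8 FPKM under shGFP and at 35.0, 33.0 and 33.2 under shNRF2 and did not pass the test. The proton pump subunits ATP6V0D1 (1.02) and ATP6V1H (0.64), the sterol carrier NPC2 (0.90), LAMP2 (0.72), the calcium channel MCOLN1 (0.32) and the hydrolases CTSB (0.86), CTSZ (0.81), CTSD (0.68), GUSB (0.43) and HEXA (0.31) and the activator precursor PSAP (0.77) rose as well, and the sterol exporter NPC1 (0.01) did not pass the test. GLA, the alpha-galactosidase that is deficient in Fabry disease, moved the other way, from 155, 142 and 147 FPKM under shGFP to 55.6, 57.2 and 56.6 under shNRF2 (-1.37 ± 0.037, adjusted p = 9.64e-13). CTSL fell little, from 2161, 2201 and 2199 to 2032, 2058 and 1965 (-0.12 ± 0.029), a call that was lost when the values were rescaled to a common FPKM sum (adjusted p = 0.427).

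**Figure D2:**
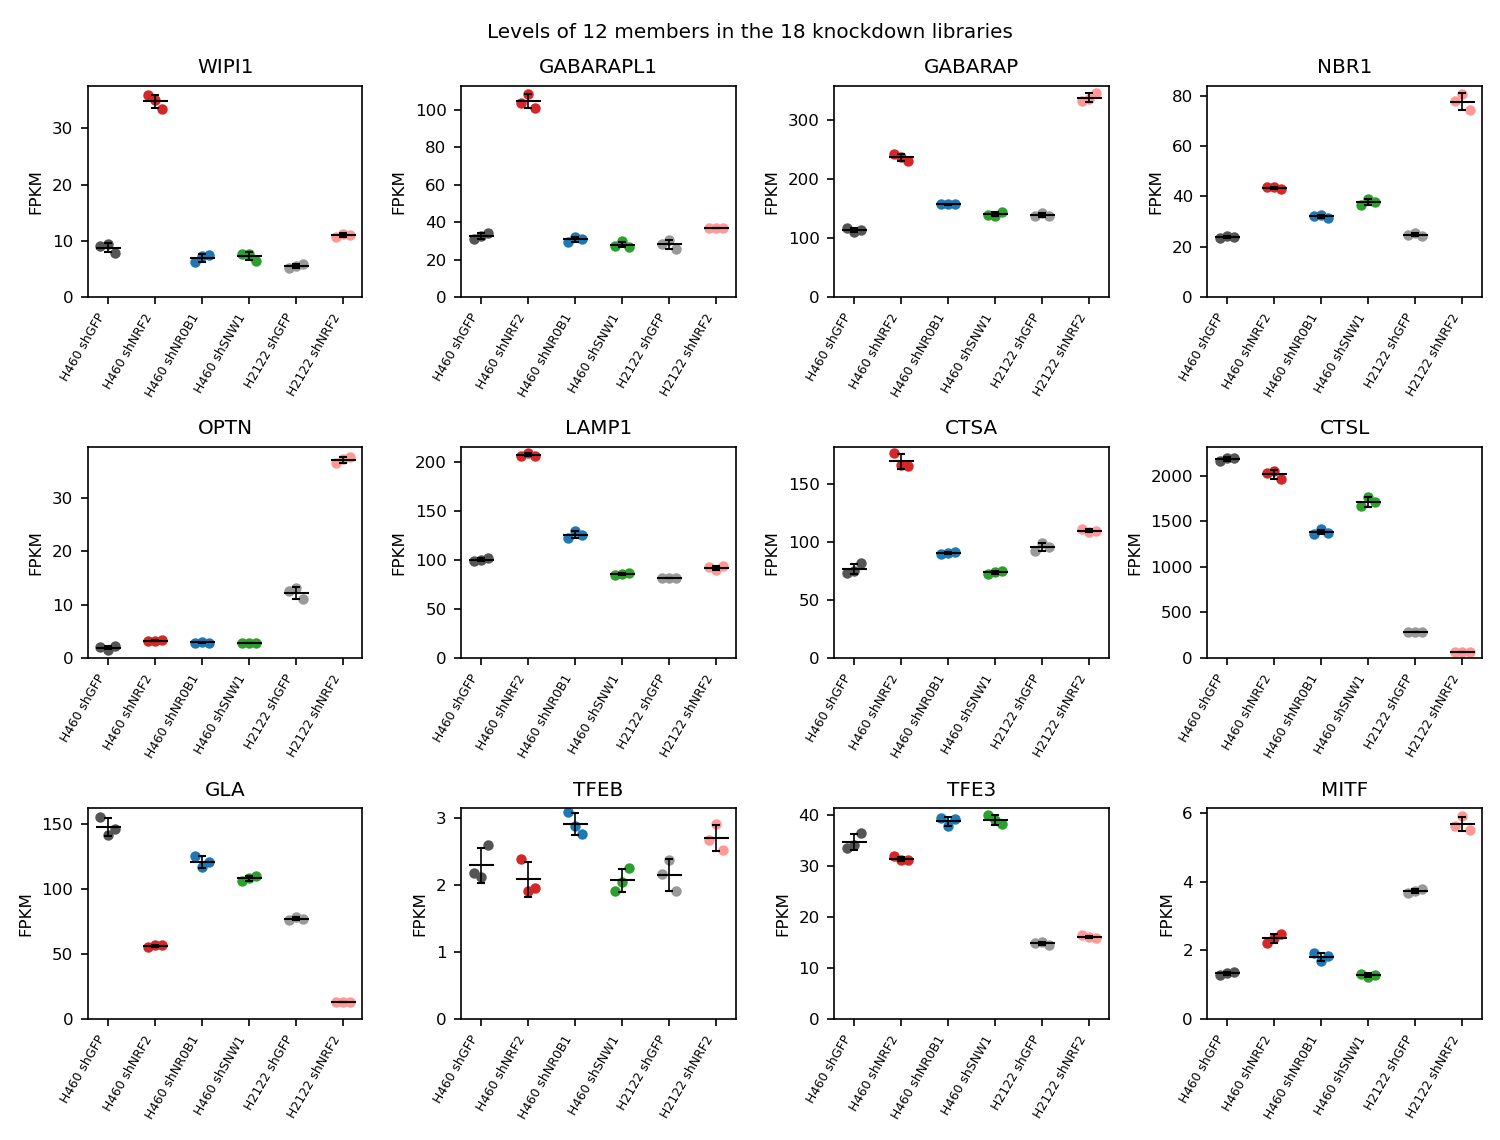
FPKM (linear axes from 0) of 12 members in each of the 18 knockdown libraries, with the mean and SD of each group of 3. WIPI1, GABARAPL1, LAMP1 and CTSA stand high in H460 shNRF2, OPTN and NBR1 in H2122 shNRF2, and GLA falls in both lines.

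The promoters of the members were read from RefSeq (GRCh38.p14) as windows of 250 bases before to 50 bases after the gene start, and 39 of the 44 members had an entry (all but CTSB, HEXA, PSAP, LAMP2 and ATP6V1H). The windows were searched on both strands for CACGTG, the E-box core that MiT/TFE factors bind, and for TGACNNNGC, the core of the antioxidant response element bound by NRF2. CACGTG was found in 8 of 39 members (20.5%) and in 7.43% of all 27305 promoters, and 6 of the 8 are among the 13 lysosome members with an entry (46.2%): LAMP1, CTSA, CTSD, NEU1, MCOLN1 and ATP6V0D1. The other 2 are ATG3 and ATG14. All 6 of these lysosome members rose in H460 shNRF2, as did 3 of the 7 lysosome members without CACGTG. In H2122 shNRF2 the counts were 4 of 6 (CTSD fell and MCOLN1 was not called) and 4 of 7. The lysosome members without an entry (CTSB, HEXA, PSAP, LAMP2 and ATP6V1H) rose in both lines and are in neither count. Of all genes, 40.9% rose in H460 shNRF2 and 48.8% in H2122 shNRF2. A link between CACGTG and these changes was not tested. ATG14 rose and ATG3 fell in both lines. TGACNNNGC was in 9 of 39 members (23.1%) and 13.6% of all promoters: CTSL, CTSD, ATG101, LAMP1, ATP6V0D1, MAP1LC3B, CTSA, CTSZ and GLA. Neither CACGTG nor TGACNNNGC was found in the windows of WIPI1 and GABARAPL1, which says only that these letters are not in those windows. A match describes the sequence and was not tested as a binding site.

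The promoters of LAMP1, CTSA and MCOLN1 are printed because these lysosomal genes rose in H460 shNRF2 and hold E-box cores. Those of GLA and CTSL are printed because these genes fell in both lines, CTSL in H460 by only -0.12, a fall not called on a common FPKM sum. Each runs 5′ to 3′ in the direction of the gene, with CACGTG and TGACNNNGC matches on either strand in capitals. In LAMP1 the first run of capitals holds a TGACNNNGC match on the other strand that overlaps a CACGTG.
LAMP1: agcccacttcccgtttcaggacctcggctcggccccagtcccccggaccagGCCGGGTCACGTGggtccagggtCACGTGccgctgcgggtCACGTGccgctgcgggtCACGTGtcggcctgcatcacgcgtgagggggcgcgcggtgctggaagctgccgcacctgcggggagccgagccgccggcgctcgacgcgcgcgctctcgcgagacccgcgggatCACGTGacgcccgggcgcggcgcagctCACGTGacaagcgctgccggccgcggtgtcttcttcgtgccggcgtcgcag
CTSA: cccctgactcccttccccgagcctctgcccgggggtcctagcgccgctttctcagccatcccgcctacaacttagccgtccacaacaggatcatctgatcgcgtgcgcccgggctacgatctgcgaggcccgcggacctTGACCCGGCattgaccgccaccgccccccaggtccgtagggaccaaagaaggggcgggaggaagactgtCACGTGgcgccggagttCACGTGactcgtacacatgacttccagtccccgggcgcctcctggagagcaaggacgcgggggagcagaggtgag
MCOLN1: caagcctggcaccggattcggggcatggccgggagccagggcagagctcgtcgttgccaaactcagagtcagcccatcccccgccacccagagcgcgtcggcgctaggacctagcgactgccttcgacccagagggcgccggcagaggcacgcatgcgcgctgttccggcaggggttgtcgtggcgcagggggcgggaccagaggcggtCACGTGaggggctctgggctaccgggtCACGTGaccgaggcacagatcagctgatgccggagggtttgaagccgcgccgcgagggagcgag
GLA: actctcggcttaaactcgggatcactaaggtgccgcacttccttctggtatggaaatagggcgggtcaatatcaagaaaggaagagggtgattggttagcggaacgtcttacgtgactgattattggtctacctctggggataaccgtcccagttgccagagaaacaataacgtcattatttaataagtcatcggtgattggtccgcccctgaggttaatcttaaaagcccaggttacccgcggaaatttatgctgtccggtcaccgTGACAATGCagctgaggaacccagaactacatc
CTSL: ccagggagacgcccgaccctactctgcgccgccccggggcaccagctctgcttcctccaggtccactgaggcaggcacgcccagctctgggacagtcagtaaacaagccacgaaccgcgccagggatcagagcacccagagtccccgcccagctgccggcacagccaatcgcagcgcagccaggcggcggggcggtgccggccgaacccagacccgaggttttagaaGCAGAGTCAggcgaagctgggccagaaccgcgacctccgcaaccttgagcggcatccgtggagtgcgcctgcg
The LAMP1 window, chr13:113296989-113297288 (plus strand), holds 6 E-box cores. Those of CTSA, chr20:45891085-45891384 (plus strand), and MCOLN1, chr19:7522374-7522673 (plus strand), hold 2 each. The GLA window, chrX:101407876-101408175 (minus strand), and the CTSL window, chr9:87725869-87726168 (plus strand), hold 1 TGACNNNGC match each and no CACGTG.

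NRF2 knockdown in H2122 raised 35 of the 44 members and lowered 5, where 48.8% of all 11710 genes tested rose and 38.5% fell. With the 1.5-fold rule 15 members rose and 3 fell, against 22.3% and 19.5% of all genes. The median member changed by 0.37 and the median gene by 0.09. With values rescaled to a common FPKM sum the median of all genes was 0.23. That scaling multiplies all genes of a library, members included, by the same factor, so 0.23 is not to be set against 0.37. Machinery members rose in 19 of 23 cases with 1 fall (median 0.65), lysosome members in 13 of 18 with 4 falls (median 0.29). Among the 25 members not named otherwise in this comparison, 21 rose, by 0.11 to 1.05. The values of ATG12 (-0.04), ATG101 (-0.01), MCOLN1 (-0.03) and ULK2 (0.06) did not pass the test. The largest machinery rises were those of the 2 cargo receptors and GABARAP. NBR1 went from 24.7, 25.5 and 24.3 FPKM to 78.1, 80.9 and 74.3 (1.61 ± 0.035, adjusted p = 1.78e-10). OPTN went from 12.6, 13.1 and 11.0 to 36.4, 37.4 and 37.6 (1.53 ± 0.054), and GABARAP from 137, 143 and 137 to 332, 335 and 345 (1.27 ± 0.025). In each of these 3 genes the groups stood far apart. ATG3 was the 1 machinery member that fell, from 55.6, 55.7 and 55.4 to 35.4, 38.1 and 35.7 FPKM (-0.60 ± 0.031).

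In the H2122 lysosome group CTSB, a cysteine protease, rose from 129.5, 135 and 132 to 292, 295 and 294 FPKM (1.15 ± 0.022), PSAP from 301, 319 and 306 to 519, 524 and 524 (0.76 ± 0.025) and NPC2 from 22.7, 26.7 and 22.1 to 32.6, 32.3 and 33.9 (0.45 ± 0.062). The falls of GLA and CTSL were larger than the rise of any member. GLA went from 75.9, 78.8 and 77.2 to 13.2, 12.8 and 12.9 FPKM (-2.48 ± 0.027, adjusted p = 9.12e-12), and CTSL from 284, 289.7 and 289 to 67.2, 63.5 and 67.1 (-2.11 ± 0.026, adjusted p = 1.77e-11). The fitted fold was 0.179 for GLA and 0.232 for CTSL. GLB1 fell slightly, from 25.4, 25.8 and 24.8 to 22.3, 23.2 and 21.2 (-0.18 ± 0.037), a call lost on a common FPKM sum (adjusted p = 0.387). CTSD, an aspartic protease, fell by this scaling (-0.14 ± 0.02) but stood at 0.004 on a common FPKM sum, where ATG101 and ATG12 changed sign too, to 0.14 and 0.09, from -0.01 and -0.04, which had not passed the test. LAMP1, by contrast with H460, went only from 81.8, 81.9 and 81.7 to 92.6, 90.2 and 93.8 FPKM (0.17 ± 0.022).

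Both lines shared 30 of the 44 members (68.2%) as higher and 3 as lower (ATG3, CTSL and GLA) after NRF2 knockdown, and the 2 comparisons share no library. Of the 10731 genes tested in both lines, 29.7% were higher in both and 29% lower in both. ATG5 and TFE3 rose in H2122 and fell in H460, and CTSD fell in H2122 and rose in H460. On a common FPKM sum CTSD stood at 0.004 in H2122 and was not called, and neither was the H460 fall of CTSL (-0.12). The difference between the 2 responses was tested as an interaction: the response was higher in H2122 for 15 members and lower for 17, against 37.4% and 34.3% of all 12798 genes, and with the 1.5-fold rule for 3 and 9 members, against 14.5% and 13.8%. Lysosome members made up 13 of the 17 with the lower response in H2122, and machinery members 11 of the 15 with the higher one. The largest differences toward H2122 were those of OPTN (1.00 ± 0.11), NBR1 (0.76 ± 0.047), ATG5 (0.59 ± 0.074) and ATG2A, a lipid transfer protein (0.47 ± 0.075). The largest toward H460 were those of CTSL (-1.99 ± 0.039), GABARAPL1 (-1.28 ± 0.075), GLA (-1.11 ± 0.048) and WIPI1 (-1.00 ± 0.083). For CTSL and GLA this is a deeper fall in H2122, and for GABARAPL1 and WIPI1 a smaller rise: GABARAPL1 went from 28.1, 30.5 and 25.8 to 36.8, 36.8 and 36.8 FPKM and WIPI1 from 5.24, 5.49 and 5.88 to 10.6, 11.2 and 11.1. ATG5 was at 13.5, 13.4 and 13.2 FPKM in H2122 shGFP and 15.1, 16.1 and 15.2 in H2122 shNRF2, and ATG2A at 4.41, 4.41 and 4.29 and 7.88, 8.34 and 8.03. OPTN was scarcer in H460 shGFP than in H2122 shGFP (means of 1.95 and 12.2 FPKM). The added 1 FPKM therefore damped its rise more in H460, which enlarges its difference of 1.00.

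**Figure D3:**
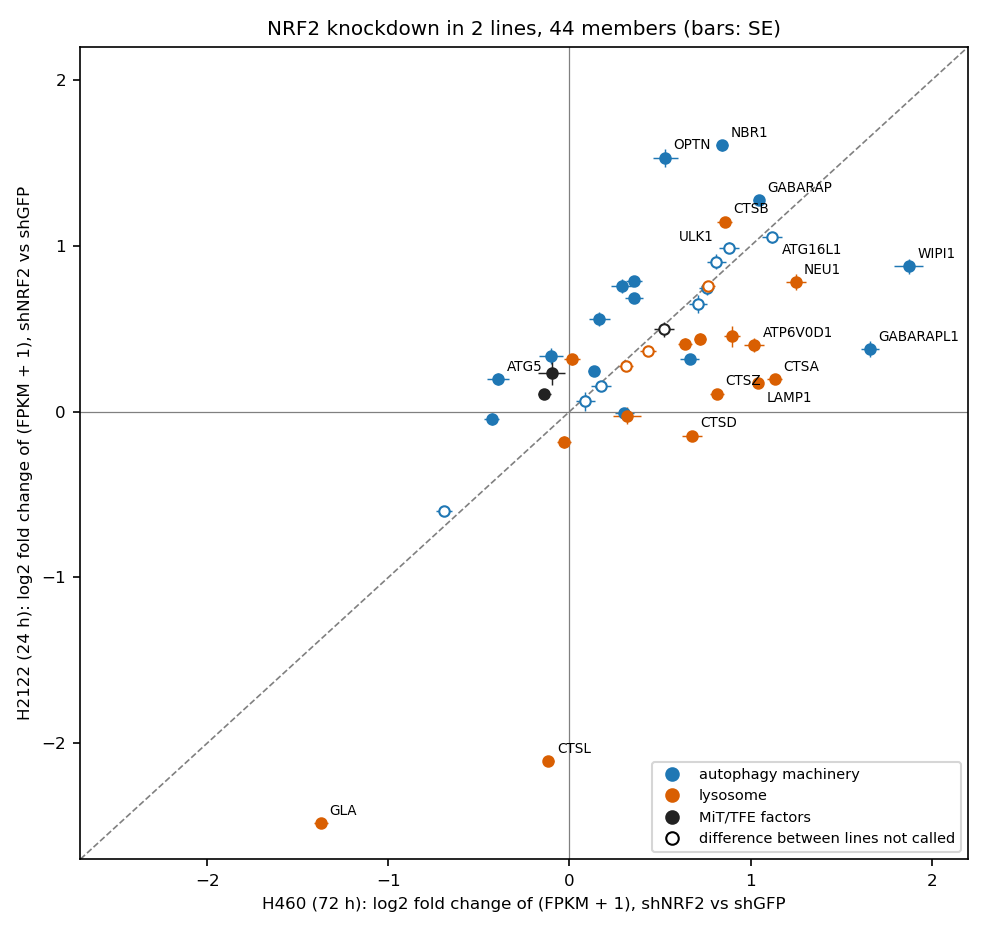
Log2 fold change of FPKM + 1 after NRF2 knockdown in H460 (x axis) and H2122 (y axis) for the 44 members, with SE bars; filled points had a called difference between the lines, and the dashed line marks equal change. OPTN and NBR1 lie above that line, while CTSL, WIPI1, GABARAPL1, CTSA and LAMP1 lie below it.

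NR0B1 knockdown in H460 raised 28 members and lowered 10, against 33.1% and 36.8% of all genes. The changes were small: with the 1.5-fold rule 4 members rose and 2 fell, against 6.94% and 7.15% of all genes. The median member changed by 0.24, the median gene by -0.02. This comparison, that of SNW1 and that of NRF2 share the 3 shGFP libraries of H460. ATG9A, the transmembrane protein that supplies membrane to the autophagosome, showed the largest machinery rise, from 19.8, 20.7 and 22.7 to 34.5, 34.5 and 37.0 FPKM (0.72 ± 0.051, adjusted p = 3.01e-08). ULK1 rose from 14.6, 15.9 and 16.6 to 24.1, 27.9 and 25.5 FPKM (0.68 ± 0.056) and ATG16L1 from 8.39, 8.94 and 9.06 to 14.8, 13.3 and 13.2 (0.59 ± 0.056). These 3 rises, and that of NPC2 from 23.9, 24.0 and 23.4 to 36.6, 36.8 and 37.0 (0.61 ± 0.046), make up the 4 past 1.5-fold, each with no overlap between groups, and the 2 falls past it were those of ATG5 and CTSL. Within the machinery ATG5 fell most, from 16.3, 15.2 and 13.8 to 9.21, 8.98 and 8.52 FPKM (-0.70 ± 0.059), followed by WIPI2, from 10.5, 10.9 and 11.7 to 8.76, 8.94 and 8.58 (-0.30 ± 0.043), and WIPI1, at 6.13, 7.35 and 7.44 (-0.30 ± 0.079), whose call was lost on a common FPKM sum (adjusted p = 0.058).

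Of the lysosome members under shNR0B1, 11 rose and 6 fell. CTSD rose from 237, 239 and 273 to 336, 352 and 355 FPKM (0.48 ± 0.056) and LAMP2, a membrane protein needed for fusion and chaperone-mediated autophagy, from 17.9, 17.5 and 17.0 to 23.4, 23.1 and 23.3 (0.40 ± 0.032). CTSL fell to 1362, 1412 and 1376 FPKM (-0.66 ± 0.029, adjusted p = 3.55e-10), GLA to 125, 117 and 121 (-0.29 ± 0.037) and NPC1 from 13.1, 14.8 and 13.8 to 11.3, 11.0 and 11.4 (-0.28 ± 0.043). On a common FPKM sum GLA stood at -0.16, NPC1 at -0.16 and WIPI2 at -0.18, each still called. Among the 29 members not named otherwise in this comparison, 19 rose, by 0.11 to 0.54, and ATG3 (-0.15), ATP6V1H (-0.17), CTSB (-0.24) and NEU1 (-0.28) fell. The values of ATG12 (-0.08), ATG4A (-0.03), ATG7 (-0.05), ATG101 (-0.05), GABARAPL1 (-0.07) and MCOLN1 (0.14) did not pass the test.

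SNW1 knockdown raised 23 members and lowered 12, against 30.8% and 36.4% of all genes, and with the 1.5-fold rule raised 3 and lowered 0, against 5.43% and 6.88%. On a common FPKM sum 27 members were called higher and 8 lower. Calls over all genes moved the same way, from 3671 higher and 4349 lower to 4748 and 3340. As the values were deposited, the median member changed by 0.16 and the median gene by -0.03. On a common FPKM sum the median gene stood at 0.058, a value not to be set against 0.16, since that scaling moves the members too. Machinery and lysosome differed in their counts: 15 of 23 machinery members rose and 5 fell, while 7 of 18 lysosome members rose and 7 fell (median -0.01, and 9 and 7 with a median of 0.08 on a common FPKM sum). The largest rise was that of ATG16L1, from 8.39, 8.94 and 9.06 to 22.1, 21.8 and 24.5 FPKM (1.28 ± 0.056, adjusted p = 4.31e-10). BECN1, the core of the lipid kinase complex, rose from 28.1, 28.4 and 28.9 to 45.6, 45.9 and 44.0 (0.65 ± 0.032) and NBR1 from 23.5, 24.1 and 23.8 to 36.8, 39.1 and 37.6 (0.65 ± 0.031). No other member passed 1.5-fold on the scale of FPKM + 1. ATG5 fell to 10.2, 10.6 and 9.44 FPKM (-0.54 ± 0.059). WIPI1, at 7.64, 7.72 and 6.46 (-0.24 ± 0.079), and GABARAPL1, at 27.3, 29.8 and 27.0 (-0.20 ± 0.05), were slightly lower, but WIPI1 lost its call without shGFP replicate 2 or shSNW1 replicate 3 (adjusted p = 0.0674 and 0.0786), on a common read total (0.0702) and on a common FPKM sum (0.101), and GABARAPL1 on a common FPKM sum (adjusted p = 0.0526).

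Among lysosome members under shSNW1, the proton pump subunits rose, ATP6V0D1 from 46.8, 50.4 and 57.0 to 66.6, 64.8 and 68.5 FPKM (0.37 ± 0.055) and ATP6V1H from 13.8, 13.5 and 13.6 to 17.7, 17.7 and 17.4 (0.34 ± 0.04), and NPC2 rose to 27.9, 31.7 and 30.4 (0.32 ± 0.046). GLA fell to 106, 108 and 110.3 FPKM (-0.45 ± 0.037), MCOLN1, the lysosomal calcium channel, from 6.17, 6.1 and 6.52 to 4.54, 3.92 and 5.01 (-0.41 ± 0.079), and CTSL to 1665, 1764 and 1710 (-0.35 ± 0.029). NEU1, chosen after its values were seen, rose to 2.98, 2.7 and 2.94 FPKM (0.48 ± 0.056). Among the 28 members not named otherwise in this comparison, 15 rose, by 0.16 to 0.44, and ATG12 (-0.13), CTSZ (-0.29), GABARAPL2 (-0.13), GUSB (-0.20), LAMP1 (-0.22) and NPC1 (-0.30) fell. The values of ATG3 (0.06), ATG7 (-0.09), CTSA (-0.06), CTSB (-0.05), GLB1 (0.02), PSAP (0.04) and ULK2 (0.07) did not pass the test.

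The direct comparisons between H460 hairpins need no control library. Against shNR0B1, 28 members were higher and 9 lower under shNRF2 (37.8% and 36.7% of all genes); against shSNW1, 29 were higher and 7 lower (39.6% and 39.1%). On a common total of recovered reads these became 23 and 11 against shNR0B1 and 26 and 11 against shSNW1. At that scaling 3506 of all 11916 genes were higher and 5456 lower against shNR0B1, and 3909 and 5575 against shSNW1. The median of all genes moved from 0.01 to -0.10 against shSNW1 and from 0.01 to -0.09 against shNR0B1. WIPI1 and GABARAPL1 led both comparisons, WIPI1 with 2.17 ± 0.079 and 2.12 ± 0.079 and GABARAPL1 with 1.73 ± 0.05 and 1.86 ± 0.05. Next came NEU1 (1.53 ± 0.056) and CTSB (1.10 ± 0.043) against shNR0B1, and LAMP1 (1.26 ± 0.028) and CTSA (1.19 ± 0.039) against shSNW1. GLA and ATG3 were the lowest under shNRF2 in both (-1.08 and -0.54 against shNR0B1, -0.93 and -0.76 against shSNW1), joined by ATG12 (-0.35) and TFEB (-0.35) in the first and BECN1 (-0.51) and TFE3 (-0.31) in the second. TFEB, the scarcest of these genes, differed by -0.47 with a pseudocount of 0.1 FPKM.

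Between shNR0B1 and shSNW1, 20 members were higher under shNR0B1 and 13 lower (34.7% and 33.1% of all genes). Those higher were led by CTSZ (0.63 ± 0.04), LAMP1 (0.55 ± 0.028), MCOLN1 (0.54 ± 0.079) and ATG9A (0.48 ± 0.051). Those lower were led by NEU1 (-0.76 ± 0.056, and -1.15 by voom on recovered reads), ATG16L1 (-0.69 ± 0.056), WIPI2 (-0.60 ± 0.043) and ATP6V1H (-0.52 ± 0.04). CTSZ, a carboxypeptidase, was at 607, 626 and 619 FPKM under shNR0B1 and 396, 401 and 399 under shSNW1, with 465, 476 and 527 in the control between them.

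In compound-treated H460 no member changed by more than 0.45 on the log2 scale. The transcript lengths behind the compound columns are not those behind the knockdown columns, so each library is given as a ratio to the mean of the DMSO libraries. Of the 44 members, 20 (45.5%) deviated over 2-fold from the median ratio of these lengths, as did 54.4% of all 16108 genes with both lengths. BPK29 raised 22 members and lowered 5, against 21.1% and 29.3% of all 11461 genes, and no member reached 1.5-fold, which 0.838% of genes did upward and 1.53% downward. On a common total of recovered reads the members' split was 25 to 2, and that of all genes moved from 2418 higher and 3359 lower to 3645 and 2313. The median member changed by 0.10, the median gene by -0.02.

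ULK1 showed the largest rise, with ratios of 1.43, 1.30 and 1.39 in the BPK29 libraries and 1.06, 0.98 and 0.96 in DMSO (0.45 ± 0.056, adjusted p = 1.27e-04). ATG2A stood at 1.37, 1.35 and 1.38 (0.43 ± 0.053) and MAP1LC3B at 1.23, 1.23 and 1.24 (0.29 ± 0.03). All BPK29 libraries lay above all DMSO libraries for these 3 genes. BECN1 was the 1 machinery member that fell, to 0.83, 0.82 and 0.81 (-0.28 ± 0.026, adjusted p = 2.36e-05). In the lysosome group CTSL rose to 1.26, 1.27 and 1.29 (0.35 ± 0.02), MCOLN1 to 1.28, 1.41 and 1.31 (0.34 ± 0.064) and CTSD to 1.24, 1.22 and 1.24 (0.30 ± 0.025). HEXA, at 0.89, 0.95 and 0.89, LAMP2, at 0.94, 0.91 and 0.97, and CTSZ, at 0.92, 0.94 and 0.96, fell as the values were deposited, but on a common total of recovered reads none of the 3 was called (adjusted p = 0.139 for HEXA, 0.325 for LAMP2 and 0.438 for CTSZ). Of the MiT/TFE factors TFEB rose to 1.24, 1.25 and 1.27 (0.29 ± 0.052) and TFE3 to 1.11, 1.08 and 1.11 (0.14 ± 0.028), while MITF fell to 0.71, 0.68 and 0.77 (-0.33 ± 0.054). Among the 31 members not named otherwise in this comparison, 14 rose, by 0.12 to 0.23. The values of ATG12 (0.03), ATG16L1 (-0.05), ATG3 (-0.03), ATG4B (0.07), ATG5 (-0.01), ATG7 (-0.07), ATG9A (-0.03), ATP6V0D1 (0.07), ATP6V1H (0.00), CTSB (-0.02), GABARAP (0.07), GLB1 (0.04), GUSB (-0.05), NPC2 (-0.05), OPTN (-0.04), ULK2 (0.01) and WIPI1 (0.04) did not pass the test.

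With BPK9 limma called no member (0 of 44, against 0% of all genes higher and 0.00873% lower). At an unadjusted p under 0.05 there were 6 members, 5 of them higher. By voom on recovered reads 3 were called higher: CTSD (0.12), CTSL (0.10) and CTSZ (0.10). Of all 11461 genes, voom called 164 higher and 74 lower. The 95% intervals of the 44 members against DMSO lay between 0.866-fold and 1.21-fold. For the MiT/TFE factors the BPK9 ratios were 1.00, 1.03 and 1.10 for TFEB, 1.01, 1.00 and 0.99 for TFE3 and 0.91, 1.03 and 0.98 for MITF. Compared directly at the same dose and time, 20 members were higher and 6 lower with BPK29 than with BPK9 (19.7% and 27.2% of all genes). On a common total of recovered reads the members' counts were 25 and 3. Those of all genes moved from 2258 higher and 3121 lower to 3295 and 2290. ATG2A (0.42 ± 0.053), ULK1 (0.35 ± 0.056), MAP1LC3B (0.29 ± 0.03) and CTSL (0.26 ± 0.02) were the highest, and MITF (-0.29 ± 0.054), BECN1 (-0.26 ± 0.026), CTSZ (-0.17 ± 0.028) and HEXA (-0.13 ± 0.036) the lowest. Without BPK29 replicate 1 or BPK9 replicate 2, 3 members were called lower in place of 6, and HEXA lost its call without BPK29 replicate 1 or 3 or BPK9 replicate 2 (adjusted p = 0.0548, 0.0537 and 0.0512) and on a common total of recovered reads (0.0988). This was the 1 pair of compounds compared, and its p-values are adjusted over all 11461 genes. For the 18 members that did not pass this test, the intervals of the difference lay between 0.861-fold and 1.16-fold, which does not show that the compounds act alike on them.

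BPK29 and the NR0B1 hairpin were compared in different libraries, at 12 h and 72 h. Of the 28 members higher under shNR0B1, 13 (46.4%) were higher with BPK29, which is 59.1% of the 22 higher with BPK29, and 5 were lower. Of all genes higher under shNR0B1 and tested in both experiments, 26.7% were higher with BPK29 and 24% lower, and of those higher with BPK29 40.6% were higher under shNR0B1. None of the 10 lower under shNR0B1 was lower with BPK29, and 5 of them were higher: CTSL, GLA, NEU1, NPC1 and WIPI2. Of all genes lower under shNR0B1, 38.5% were lower with BPK29 and 17% higher. The 5 members lower with BPK29 as the values were deposited were higher under shNR0B1, but only BECN1 and MITF of them were called lower with BPK29 on a common total of recovered reads, on a common FPKM sum and by voom, and CTSZ, HEXA and LAMP2 were not. ULK1 rose in both (0.68 and 0.45), as did MAP1LC3B (0.28 and 0.29) and TFEB (0.25 and 0.29), while CTSL was at -0.66 and 0.35.

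**Figure D4:**
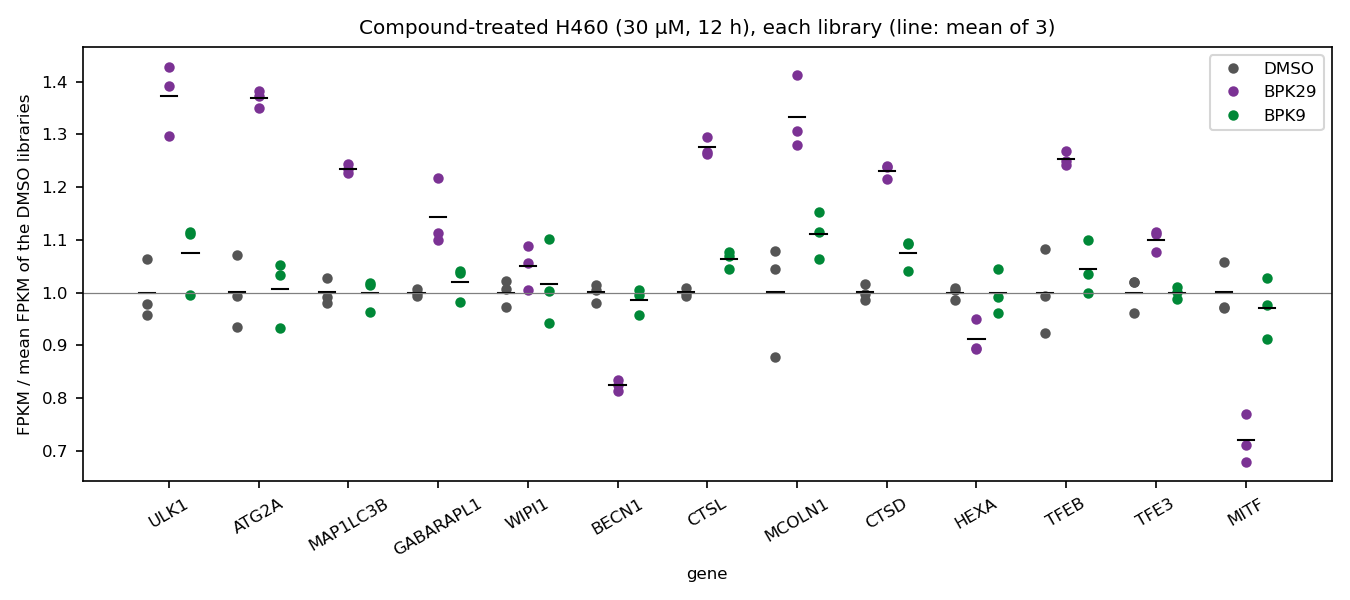
Ratio of FPKM to the mean of the DMSO libraries (linear axis that does not start at 0) for 13 members in each of the 9 compound libraries, with a bar at each group mean. The BPK29 points of ULK1, ATG2A and MAP1LC3B lie above 1.2, those of BECN1 and MITF lie below 0.9, and the BPK9 points overlap those of DMSO for most of these genes.

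The wider list held 113 further genes of autophagy and the lysosome, of which 105 to 108 passed the filter on low values in each comparison with a control. Of the wider-list hydrolases in H460 shNRF2, 31 of the 32 tested rose and PPT1 fell, with a median of 0.68. In H2122 shNRF2, 26 of 34 rose and 8 fell (median 0.45). Under shNR0B1, 16 of 32 rose and 8 fell, and under shSNW1 8 rose and 20 fell (median -0.29), with 18 or 19 falling under each of the other scalings tried. Of all genes, 40.9% rose and 39% fell in H460 shNRF2, 48.8% and 38.5% in H2122 shNRF2, 33.1% and 36.8% under shNR0B1, 30.8% and 36.4% under shSNW1 and 21.1% and 29.3% with BPK29. The whole wider list had 69 higher and 22 lower in H460 shNRF2, 74 and 25 in H2122, 43 and 34 under shNR0B1, 35 and 46 under shSNW1 and 38 and 13 with BPK29, and its counts under shNR0B1 and shSNW1 lie near those shares of all genes. The genes named next had a mean of at least 5 FPKM in the higher group of the knockdown comparison, and the largest changes are those among such genes; no level minimum was set in the compound columns.

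SMPD1, the acid sphingomyelinase, rose most in H460 shNRF2, from 8.76, 8.13 and 7.84 to 52.6, 49.5 and 49.1 FPKM (2.48 ± 0.057), and in H2122 from 2.49, 2.38 and 3.09 to 9.57, 11.2 and 11.0 (1.67 ± 0.082). ARSB, an arylsulfatase, rose by 2.11 ± 0.046 in H460, IDUA, the alpha-iduronidase, by 1.98 ± 0.061 and the cathepsin CTSO by 1.80 ± 0.069. CTSO rose in H2122 too (1.82 ± 0.058), with FUCA1, a fucosidase (1.65 ± 0.029), and CTSS, which went from 4.46, 4.87 and 4.22 to 33.7, 32.1 and 31.4 FPKM (2.60 ± 0.049) and was under 0.3 FPKM in every H460 library. SQSTM1 (p62), a cargo receptor and a known NRF2 target, fell from 613, 634 and 625 to 178, 180.5 and 183 FPKM in H2122 (-1.78 ± 0.021) and from 329.7, 336 and 363 to 228, 220.2 and 224 in H460 (-0.61 ± 0.034), opposite to NBR1 and OPTN. PPT1, a palmitoyl thioesterase, fell in both lines (-1.35 ± 0.035 in H2122, -0.74 ± 0.035 in H460), as did the mitophagy receptor BNIP3 (-0.76 and -0.83). TMEM192 (-0.75) in H2122 and ATG4C (-0.73) in H460 completed the largest falls.

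Under shNR0B1 the largest falls of the wider list were those of 3 hydrolases or enzymes that act with them, HGSNAT, NAGLU and GALC. HGSNAT, an acetyltransferase, went from 10.6, 11.4 and 11.9 to 3.88, 3.72 and 3.87 FPKM (-1.35 ± 0.045), NAGLU, a glucosaminidase, from 13.6, 13.7 and 15.3 to 5.25, 5.54 and 5.29 (-1.25 ± 0.059), and GALC, the galactosylceramidase, from 335, 319 and 295 to 149, 149 and 138 (-1.12 ± 0.043). In all 3 genes the groups stood far apart. CTSC followed (-0.67). IGF2R, the mannose 6-phosphate receptor that sorts hydrolases, rose from 26.2, 29.4 and 28.1 to 58.8, 64.2 and 63.8 (1.13 ± 0.055), with ASAH1 (0.70), SMPD1 (0.65) and ARSB (0.61). Under shSNW1, AMBRA1 (0.69), RRAGB (0.67), GALNS (0.59) and WDR45B (0.47) rose most, and CTSC (-0.85), GNPTG (-0.72) and ATP6V0E2 (-0.70) were among the largest falls. With BPK29 the mitophagy receptor BNIP3L rose most (0.81 ± 0.059), at ratios of 1.93, 1.77 and 1.93, followed by HGSNAT (0.56), WDR45 (0.49) and ATP6V0A1 (0.37). SORT1, a sorting receptor, fell most (-0.68 ± 0.061), at ratios of 0.59, 0.66 and 0.56, followed by GALC (-0.46), ARSB (-0.43) and PIK3C3 (-0.39).

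**Figure D5:**
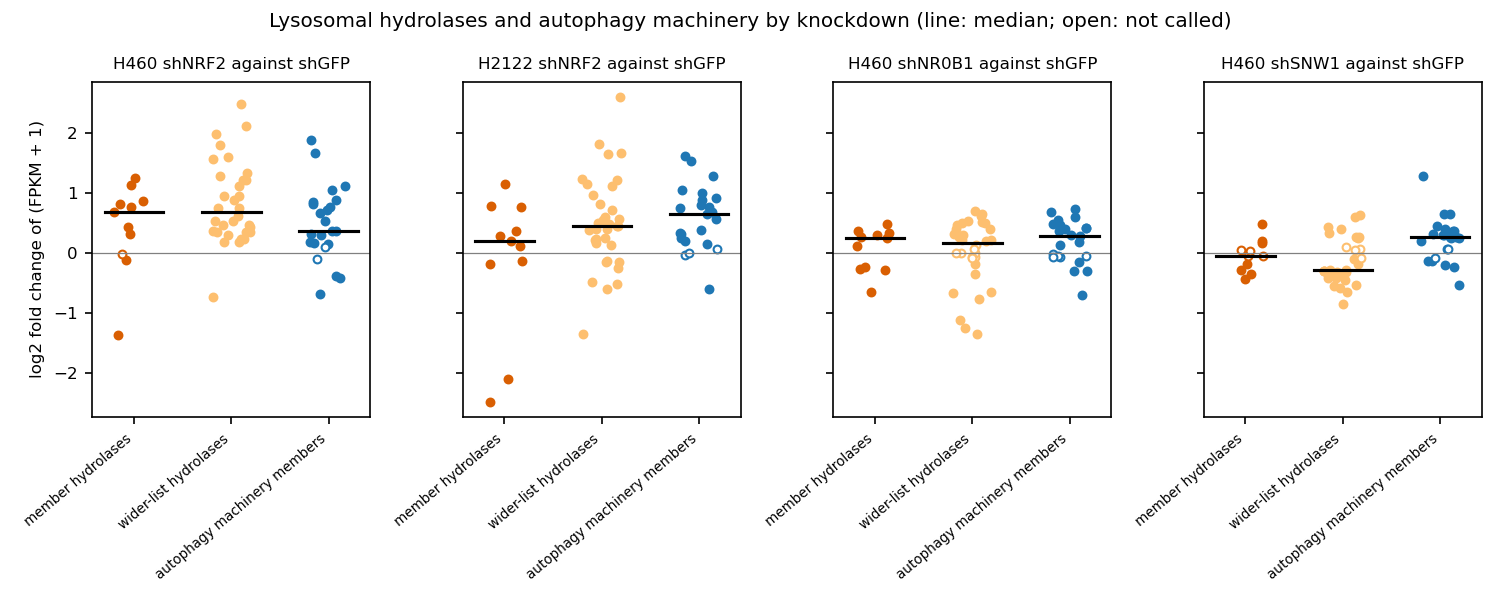
Log2 fold change of FPKM + 1 against shGFP for the hydrolases among the members (PSAP included), the hydrolases of the wider list and the autophagy machinery members, in the 4 knockdown comparisons; bars are medians and open points were not called. The medians of the wider-list hydrolases run from 0.68 in H460 shNRF2 to -0.29 in H460 shSNW1.

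The library kit does not mark strand, and 13 members overlap another protein-coding gene in RefSeq, among them WIPI1 (with ARSG and PRKAR1A), GLA (with a readthrough of RPL36A and HNRNPH2) and CTSA (with PLTP), so reads from the shared bases cannot be told apart.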

How the data were processed

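Poly(A) RNA was sequenced (TruSeq RNA kit, not strand-marking) and, per the submitters' processing notes, processed with STAR, featureCounts and DESeq2 on hg19; no order or version is given in the sources used here. The deposited table holds FPKM per gene and library. Low values were whole multiples of 1 read (all 12938 and 11461 genes at 1 FPKM in 3 libraries, tolerance 0.02 reads), which gave the read totals. Tests used limma 3.58.1 (R 4.3.3) with a mean-dependent prior on log2(FPKM + 1), genes at 1 FPKM or more in 3 libraries, and Benjamini-Hochberg adjustment over all genes. A pseudocount of 1 understates changes of scarce genes, and it can misstate a line difference where a gene is scarcer in 1 line. The fits held 12 H460, 6 H2122 or 9 compound libraries, and 1 fit tested the line difference. They were also run on simulated counts in which genes were only raised and libraries scattered independently, so shifts in scaling were not covered. Calls have an adjusted p under 0.05. Members and lists were chosen with earlier results of these data known. Per-library values are given for the MiT/TFE factors and for up to 3 called members per class and direction with the largest change (higher mean at least 5 FPKM, no minimum for compounds), 4 in direct comparisons, and up to 4 genes of the wider list. The ChIP libraries were not used.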

Additional observations from a re-analysis of the deposited data

Results flagged for a closer look

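The response to NRF2 knockdown differed between H2122 (24 h) and H460 (72 h) for 32 members, by limma's test of the difference itself (H2122 minus H460, log2 scale, 3 libraries a group in both lines). Of all 12798 genes, 37.4% had a higher and 34.3% a lower response in H2122, so the members' count lies near the share of all genes. Of the 32 members, 17 had the lower response in H2122. Among lysosome members they were CTSL (-1.99), GLA (-1.11), CTSA (-0.94), LAMP1 (-0.87), CTSD (-0.82), CTSZ (-0.71), ATP6V0D1 (-0.62), NEU1 (-0.47), NPC2 (-0.44), MCOLN1 (-0.34), LAMP2 (-0.28), ATP6V1H (-0.23) and GLB1 (-0.15). Among machinery members they were GABARAPL1 (-1.28), WIPI1 (-1.00), ATG9A (-0.34) and ATG101 (-0.31). The 15 members with the higher response in H2122 were, in the machinery, OPTN (1.00), NBR1 (0.76), ATG5 (0.59), ATG2A (0.47), ATG7 (0.44), GABARAPL2 (0.43), ATG4A (0.40), ATG12 (0.38), MAP1LC3B (0.33), GABARAP (0.23) and BECN1 (0.11). Outside it they were TFEB (0.33), NPC1 (0.30), CTSB (0.29) and TFE3 (0.25). Line and time of knockdown cannot be told apart in this difference. The 9 groups of 3 libraries are too small for a check of single libraries that stand apart.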

How the results depend on the processing

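Counts of members called were recomputed under 316 alternatives over 22 counts (another pseudocount, no filter or one at 5 FPKM, a common total of recovered reads, voom on those reads, fits of the compared groups alone, a replicate block, each library left out, and, chosen after seeing the data, a common FPKM sum), and 305 lay within 1.5 times the reported count. The members called lower moved to 3 in H2122 shNRF2 on a common FPKM sum. They moved to 11 for shNRF2 against shSNW1 on a common read total and by voom, where the median of all genes also moved. For BPK29 against DMSO they moved to 2 on a common read total, a common FPKM sum and by voom. For BPK29 against BPK9 they moved to 3 on a common read total and on a common FPKM sum, and ranged from 3 to 5 without 1 library. For BPK9 against DMSO, voom called 3 members higher, and 164 of all 11461 genes. The cause of each of these moves was not tested. Of 6890 recomputed gene values 3 changed sign, all in H2122 shNRF2 on a common FPKM sum: ATG101 (0.14), ATG12 (0.092) and CTSD (0.004). The median difference of the members between the lines, -0.03 as reported, became 0.026 on a common read total, 0.027 on a common FPKM sum and 0.024 by voom. A further 155 gene values lost their call and 88 gained one, among them 76 and 12 without 1 library. Same-numbered libraries deviated together weakly or not at all, with correlations from -0.093 to 0.13 in H460. They ran from 0.054 to 0.126 in H2122 and from -0.035 to 0.072 in the compound set. Of these pairs, 3 of 18 in H460, 1 of 3 in H2122 and 0 of 9 in the compound set were over 0.1. Differently numbered libraries were not compared, so these values cannot show whether the numbers pair the libraries. With the replicate block, 5 members were called lower for BPK29 against BPK9 in place of 6, and 16 had the lower response in H2122 in place of 17. Over all gene values the block removed 5 calls and added 2.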

Other observations

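Genes of the wider list that sort enzymes to the lysosome were few, and their counts are read against the shares of all genes: 40.9% rose and 39% fell in H460 shNRF2, 30.8% and 36.4% under shSNW1 and 48.8% and 38.5% in H2122 shNRF2. In H460 shNRF2, 4 of 5 rose: the receptors SORT1 (1.39 ± 0.041, from 4.58, 4.87 and 4.51 to 13.8, 13.9 and 13.8 FPKM), IGF2R (1.29 ± 0.055) and M6PR (0.12), and GNPTG, a subunit of the enzyme that makes the mannose 6-phosphate tag (1.18 ± 0.05), while GNPTAB, which holds the other subunits, fell (-0.21). In H460 shSNW1, 4 of the 5 fell, with SORT1 at 1.85, 1.86 and 1.88 FPKM (-0.98 ± 0.041) and GNPTG at -0.72, and IGF2R rose (0.21). In H2122 shNRF2, SORT1 (0.99), GNPTG (0.83) and IGF2R (0.26) rose and M6PR (-0.34) and GNPTAB (-0.40) fell, and all 5 had a lower response there than in H460 by the interaction test, with IGF2R differing most (-1.03).

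Genes for the fusion of autophagosomes with lysosomes rose in 7 of 7 cases in H2122 shNRF2, where 48.8% of all genes rose, led by TECPR1, a tethering protein (1.20 ± 0.035), and PLEKHM1, an adaptor of RAB7 (0.92 ± 0.044). In H460 shNRF2, where 40.9% of all genes rose and 39% fell, 4 fusion genes rose and 2 fell. The 2 were the SNAREs STX17 (-0.55 ± 0.047) and VAMP8 (-0.16 ± 0.049). The differences between the lines were 0.75 ± 0.068 for STX17 and 0.83 ± 0.057 for VAMP8. Of the 17 wider-list proton pump genes in H460 shNRF2, 6 rose and 8 fell, which lies near those shares of all genes. The rises were led by the accessory proteins ATP6AP1 (1.06 ± 0.039) and ATP6AP2 (0.88 ± 0.031), and the falls by the membrane ring subunit ATP6V0C (-0.41 ± 0.056). Both pump subunits among the 44 members rose.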
